A study of Homo sapiens with 2 samples.

Results

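Integrin and laminin subunits were examined in LN229, an established human glioblastoma line, on 1 expression array of cells in which miR-127-3p was overexpressed and 1 array of control cells. The members were all probe sets whose platform annotation gives exactly 1 gene symbol and whose symbol is that of an integrin α chain, an integrin β chain or a laminin α, β or γ chain. This gave 34 genes with 91 probe sets, of 19775 genes with 41091 probe sets in all. There were 17 integrin α chains, 7 integrin β chains and 10 laminin chains. The miR-127-3p cells carried pSUPER.neo-miR-127-3p, a plasmid vector that drives the microRNA, and the control cells carried pSUPER.neo without it. Both cultures were grown in DMEM with serum, and the labels do not say whether either was a pool of cells or a clone. Each group is 1 array, so nothing below could be checked against replicates, and p-values and standard errors are not printed.

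Integrins are cell surface receptors, each made of 1 α and 1 β chain, that connect the matrix outside a cell to its cytoskeleton. Laminins are cross-shaped or Y-shaped proteins of basement membranes, each made of 1 α, 1 β and 1 γ chain, and several integrins bind them. In gliomas, tumour cells migrate along vessel basement membranes, where laminins lie. ITGA6, the α6 chain, has been named elsewhere as a target of miR-127-3p. The mature microRNA is given here because it is the agent of the study, with its seed (bases 2 to 8), the part that pairs with target transcripts, in capitals. It lies at chr14:100883035-100883056 on the plus strand (RefSeq, GRCh38.p14):
hsa-miR-127-3p: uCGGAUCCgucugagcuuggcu
No transcript sequence was used here, so seed matches in the members were not counted.

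Signals are in arbitrary units. The median over non-control probe sets was 83.3 for miR-127-3p cells and 93.9 for control cells, and a signal under its array's median is called dim here. That limit was set here and is no detection call. Of 9 glial and glioma markers 7 were above the filter, which is defined below with the log2 ratio. SOX2 (-1.24) and NES (-1.03) passed 2-fold on the lower side, and no marker passed it on the higher side. Among all genes that passed the filter, 8.67% and 5.06% did so. The other SOX2 probe set was at -1.44, but that of NES was at -0.46, so the NES call depends on the probe set read. FABP7 was at -0.51, S100B at -0.37, OLIG2 at 0.05, VIM at 0.09 and CD44 at 0.47. GFAP, the astrocyte filament, gave 14.9 under miR-127-3p against 34.2 in control cells and was dim on each, as was AQP4. Epithelial markers separated the arrays: 11 of 12 were brighter in the control, and their summed signal was 7829 with miR-127-3p against 93924 in the control. KRT19 and EPCAM, which define simple epithelia, gave 5.64 and 30.2 with miR-127-3p, against 12674 and 9181 in the control. KRT18 stayed bright on both arrays, with 6906 of the 7829 under miR-127-3p against 44863 in the control. KRT5 went the other way, with 88.3 against a dim 4.52. The labels give LN229 for both arrays, and whether both hold the same line was not tested. Every difference below is between these 2 arrays, so an effect of miR-127-3p and any other difference between the cultures cannot be told apart. In such bulk RNA, fewer cells of a type and less RNA per cell cannot be told apart.

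Of the 34 genes, 24 had a probe set above the signal filter, which asks for a mean log2 signal over both arrays above the median of all probe sets. The ratio is log2(signal + 1) with miR-127-3p minus that in the control, shifted so that the median gene (originally 0.01) sits at 0, and a gene is read at its brightest probe set. Among the 24, 4 were higher under miR-127-3p by at least 2-fold (ITGA2, ITGA3, ITGA11 and LAMA1) and 4 at least 2-fold lower (ITGA7, ITGA9, ITGB3 and ITGB4). Among all 11985 genes that passed the filter, 5.06% were higher and 8.67% lower by the same rule, and each of the members' counts is 16.7% of 24. The filter lets a gene through when only 1 array is bright, which was so for ITGA7 and LAMA1. Of the 22 members above the median on both arrays, 3 were higher and 3 lower, beside 4.1% and 6.22% of 11195 genes. The members' median log2 ratio was -0.09, against 0 for all genes above the filter. Their median size of difference, whatever its sign, was 0.55 on the log2 scale, and that of all genes was 0.38.

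**Figure D1:**
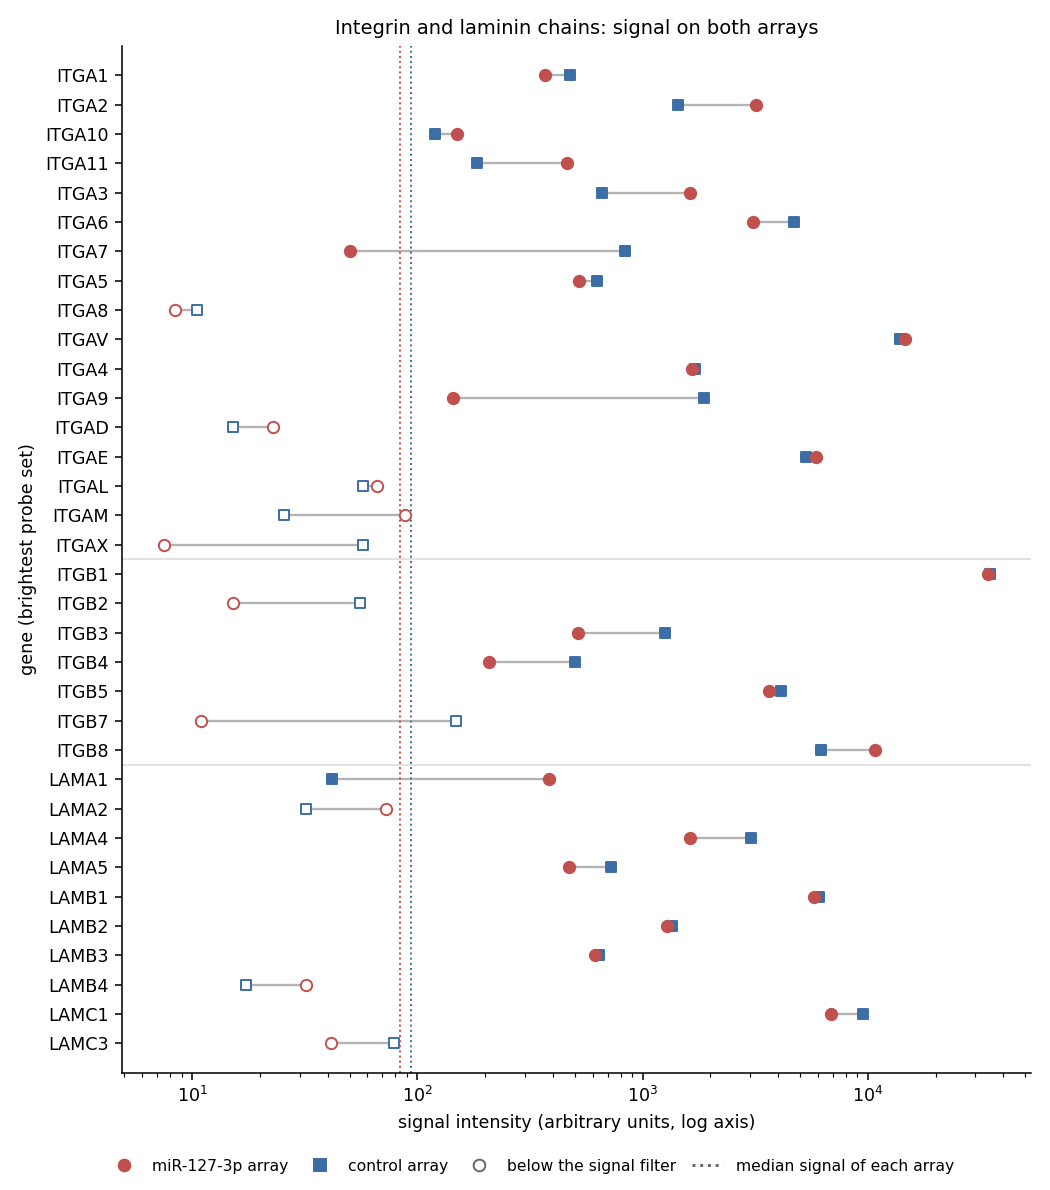
Signal intensity (log axis) of the brightest probe set of each of the 34 genes, with circles for the miR-127-3p array, squares for the control array and dotted lines at the arrays' medians of 83.3 and 93.9; open symbols mark the 10 genes below the filter. ITGA7 and LAMA1 lie on opposite sides of the medians on the 2 arrays, while ITGB1, ITGAV and LAMB1 have nearly equal signals on both.

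The α3, α6 and α7 chains, which pair with β1 to form the main laminin receptors, differed in opposite directions. ITGA3, the α3 chain, gave 1630 under miR-127-3p against 663 in control cells. Its log2 ratio was 1.28, or 2.44-fold higher, at its only probe set. ITGA7, the α7 chain known from muscle and Schwann cells, gave 50.01 under miR-127-3p against 834 in control cells. It was dim on the miR-127-3p array, so the difference is a lower limit, at least 9.97-fold lower, computed against that array's median. A second ITGA7 probe set, below the filter, gave 4.23 and 210, or at least 2.52-fold lower. Both ITGA7 probe sets were thus above the median on the control array alone. Of 7 muscle markers, whose cells carry α7, DES, a muscle filament protein, alone passed the filter, at 91.8 and 90.2, and MYOD1 and MYOG were dim on both arrays. ITGA6 gave 3104 under miR-127-3p against 4695 in control cells, a log2 ratio of -0.61, and its other probe set gave 862 and 2222, a ratio of -1.38. The 2 ITGA6 probe sets lay on the same side of 0 but on opposite sides of the 2-fold limit. ITGB4, which pairs with α6 alone and anchors hemidesmosomes, gave 208 under miR-127-3p against 502 in control cells, or 2.42-fold lower. Its other 4 probe sets were all dim on both arrays, with signals between 2.65 and 69.9. Epithelial markers, whose cells carry α6β4, were lower on the same array. All 7 that passed the filter fell by 2-fold or more, beside 8.67% of all genes. KRT19, EPCAM, DSP and ESRP1 were dim with miR-127-3p and passed through the control array alone, so the filter set their direction. KRT18 (-2.71), KRT8 (-5.79) and OCLN (-1.32) were above the median on both arrays, though OCLN reached -0.20 at another probe set. The part of these markers in the ITGB4 and ITGA6 values was not tested.

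Among the 4 collagen-binding α chains, 2 were higher and none was lower by 2-fold, beside 5.06% and 8.67% of all genes above the filter. With 4 genes, none lower is near the share of all genes. ITGA2, the α2 chain, gave 3186 under miR-127-3p against 1431 in control cells, a log2 ratio of 1.14. Its second probe set gave 1469 and 1121, a ratio of 0.38, so the size depends on the probe set read. ITGA11, a receptor chain for fibrillar collagens found on fibroblasts, gave 462 under miR-127-3p against 184 in control cells, a log2 ratio of 1.31. Its other 2 probe sets were below the filter but brighter with miR-127-3p too, at 153 against 5.30 and 101 against 55.7. Both control signals were dim, so these are lower limits, at least 1.61-fold and 1.07-fold higher. ITGA1 and ITGA10 stayed within 2-fold. ITGA1 gave 370 under miR-127-3p against 479 in control cells, a log2 ratio of -0.38, and ITGA10 gave 150 and 120, a ratio of 0.30. The same chain class therefore held ratios from -0.38 to 1.31. Fibroblast markers, whose cells carry α11, had a summed signal of 13451 under miR-127-3p against 11854 in control cells, and 6 of 8 were above the filter. Of these, DCN, a matrix proteoglycan, was higher with a ratio of 1.15 and COL1A1, a collagen I chain, lower with -1.95.

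The RefSeq promoter windows (GRCh38.p14, 250 bases before to 50 after the start site) of these 2 higher chains are shown because both genes pair with β1 and moved the same way. The ITGA2 window lies at chr5:52989102-52989401 on the plus strand and the ITGA11 window at chr15:68432114-68432413 on the minus strand. Capitals mark GC boxes (GGGCGG) in ITGA2 and an E-box (CAGGTG) in ITGA11, each searched on both strands.
ITGA2: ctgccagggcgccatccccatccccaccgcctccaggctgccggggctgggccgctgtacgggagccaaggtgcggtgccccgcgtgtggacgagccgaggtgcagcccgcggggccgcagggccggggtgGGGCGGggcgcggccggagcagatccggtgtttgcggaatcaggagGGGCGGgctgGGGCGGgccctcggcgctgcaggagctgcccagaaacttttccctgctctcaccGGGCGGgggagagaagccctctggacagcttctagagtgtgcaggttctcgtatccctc
ITGA11: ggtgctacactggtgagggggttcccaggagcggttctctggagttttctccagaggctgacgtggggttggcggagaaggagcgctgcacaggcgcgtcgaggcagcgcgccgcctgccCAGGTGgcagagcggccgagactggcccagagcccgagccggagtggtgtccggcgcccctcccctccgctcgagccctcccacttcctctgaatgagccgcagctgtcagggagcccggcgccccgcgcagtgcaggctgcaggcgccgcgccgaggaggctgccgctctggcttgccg
ITGA2 held 4 GC boxes and no E-box, and ITGA11 held 1 E-box and no GC box, so the windows did not share either motif.

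The αV chain and its β partners bind the RGD sequence of fibronectin, vitronectin and latent TGF-β. ITGAV itself was nearly equal on the arrays, with 14698 under miR-127-3p against 13935 in control cells, a log2 ratio of 0.07. Of its β partners, ITGB3 and ITGB8 differed in opposite directions. ITGB3, the β3 chain, gave 516 under miR-127-3p against 1259 in control cells, or 2.46-fold lower. The other 5 ITGB3 probe sets above the filter had log2 ratios between -1.12 and -0.83, and 1 dim probe set was below the filter with 44.8 and 22.4. ITGB8, the β8 chain, which presents latent TGF-β in the brain, gave 10776 under miR-127-3p against 6220 in control cells, a log2 ratio of 0.78. Its 3 dimmer probe sets above the filter differed more, with ratios of 1.08 and 1.40, and with 261 against a dim 61.1 for the last, at least 2.74-fold higher. All 4 were brighter with miR-127-3p, and the brightest was the only one within 2-fold. The remaining ITGB8 probe set was dim on both arrays, at 19.98 and 33.1. ITGB5, the β5 chain, gave 3647 and 4109, a ratio of -0.18, with 4 probe sets between -0.90 and -0.0011. The log2 ratio of ITGB8 exceeded that of ITGB3 by 2.08, while the α chain they share differed by 0.07. ITGA5, the α5 chain of the fibronectin receptor, gave 523.4 and 625, a ratio of -0.27. ITGA8, also RGD-binding, had 4 probe sets, all below the filter, with no signal above 22.9 at any of them.

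The promoter window of ITGB8 is given because its 4 probe sets above the filter all had ratios above 0. It lies at chr7:20330650-20330949 on the plus strand of GRCh38.p14 (RefSeq), with its 2 GC boxes in capitals, here as the reverse complement CCGCCC.
ITGB8: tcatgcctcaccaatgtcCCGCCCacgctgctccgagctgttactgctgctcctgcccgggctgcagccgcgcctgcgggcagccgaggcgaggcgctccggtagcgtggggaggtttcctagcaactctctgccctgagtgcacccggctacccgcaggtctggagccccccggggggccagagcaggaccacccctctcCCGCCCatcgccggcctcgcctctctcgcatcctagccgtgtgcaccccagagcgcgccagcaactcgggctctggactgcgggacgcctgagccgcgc
RefSeq windows were found for 23 of the 34 genes, 30 windows in all since some genes have several start sites. LAMA1, ITGA3, ITGA7, ITGA9, ITGB3 and ITGB4, which are 6 of the 8 members past 2-fold, are not among the 23, so the shares below describe mostly members within 2-fold or below the filter. A GC box on either strand was present in 60.0% of the members' windows and in 44.95% of all 35116 windows of the same length. The E-box was present in 6 of the 30 and in 20.6%, TATAAA in 6.67% and 11.5%, and the AP-1 letters TGAGTCA in 6.67% and 4.95%. None of the 3 printed windows held TATAAA or TGAGTCA, and each held a single kind of motif, so no motifs overlapped there.

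ITGB1, the β1 chain shared by most of the α chains, was the least different of the β chains. It gave 34167 under miR-127-3p against 34814 in control cells, a log2 ratio of -0.04, and 3 probe sets above the filter ranged from -0.33 to -0.04. Its other 4 probe sets were dim on both arrays. ITGA4 and ITGA9, related α chains that bind VCAM1, tenascin and osteopontin, differed from each other. ITGA4 gave 1660 under miR-127-3p against 1711 in control cells, a log2 ratio of -0.06, and the 4 of its probe sets above the filter lay between -0.34 and -0.06. ITGA9 gave 143 under miR-127-3p against 1865 in control cells, or 13.0-fold lower, with both signals above the arrays' medians. A second ITGA9 probe set gave 14.8 and 215, at least 2.58-fold lower, and the remaining 2 were dim on both arrays. The ratio of ITGA9 minus that of ITGA4 was -3.65 on the log2 scale.

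Most integrin chains of leukocytes were near or under the array medians. ITGAL, ITGAM, ITGAX, ITGAD and ITGB2 had no probe set above the filter, and the brightest signal of any of their probe sets was 88.1, from ITGAM with miR-127-3p. Of 8 leukocyte markers 5 were brighter in the control, and PTPRC, which defines leukocytes, was dim on both arrays. Among the 4 above the filter, LAPTM5 had a ratio of -0.89. LYZ and CD14 were dim on the miR-127-3p array and at least 1.41-fold and 1.26-fold lower. CD53, a tetraspanin, gave 736 under miR-127-3p against 111.4 in control cells. ITGAE, the αE chain of mucosal lymphocytes, was an exception and gave 5870 under miR-127-3p against 5316 in control cells, a log2 ratio of 0.13. Its partner chain ITGB7 gave 11.0 and 148 and was below the filter, with a lower limit of 1.78-fold lower against the array median.

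Laminin chains differed at the α position and little at the β position. LAMA1, the α1 chain of embryonic basement membranes, gave 386 under miR-127-3p against 41.7 in control cells. The control signal was dim, so LAMA1 was at least 4.04-fold higher, and a second, dim probe set gave 28.7 and 3.48. LAMA4, the α4 chain of vessel walls, gave 1626 under miR-127-3p against 3036 in control cells, a log2 ratio of -0.91. Its 4 probe sets above the filter lay between -0.95 and -0.27, all on the lower side and none past 2-fold. LAMA5, the most widespread α chain of adult tissue, gave 469 and 728, a ratio of -0.64. LAMA2, the α2 chain of muscle and nerve, had no probe set above the filter, and its brightest gave 72.5 and 31.9.

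The β chains of laminin were close to equal on both arrays. LAMB1 gave 5766 under miR-127-3p against 6091 in control cells, a log2 ratio of -0.09 at each of its 2 probe sets. LAMB2 gave 1278 and 1355, a ratio of -0.10, and LAMB3, a chain of epidermal laminin, gave 616 and 642, a ratio of -0.07. LAMC1, the γ1 chain present in most laminins, gave 6879 and 9537, a ratio of -0.48, and its second probe set was at -0.16. LAMB4 and LAMC3 were below the filter, with no signal above 79.1 at any probe set. LAMA3 and ITGB6 had no probe set annotated to them alone and were not among the members. Values of the ITGB6 probe sets, which carry a second symbol, are given under the other observations. Epithelial markers differed strongly between the arrays while LAMB3 did not reach 2-fold.

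**Figure D2:**
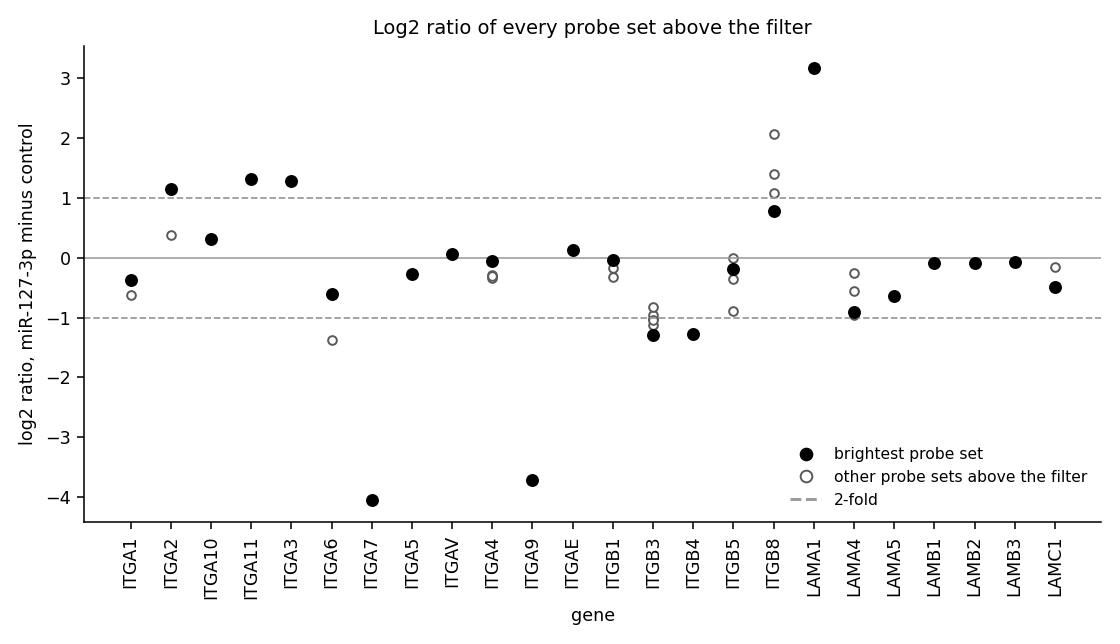
Log2 ratio, miR-127-3p minus control, of all 48 probe sets above the filter for the 24 genes; filled circles are the brightest probe set of each gene and dashed lines mark 2-fold. The 4 ITGB8 probe sets lie above 0 and the 6 ITGB3 probe sets below it, while LAMA1, ITGA7 and ITGA9 have a single probe set each.

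Probe sets of the same gene gave the only measure of error within the arrays. For the 11 members with several probe sets above the filter, all probe sets of a gene lay on the same side of 0, beside 61.2% of 5974 genes in all. The spread of ratios within a member was 0.33 per probe set (SD, from 35 probe sets of 11 genes), and it was 0.41 over all genes (SD, from the brightest 2 probe sets of 5974 genes). Neither holds variation between cultures. Of the 8 members past 2-fold, ITGA2 and ITGB3 alone passed the filter with several probe sets. ITGA3, ITGA11, ITGA7, ITGA9, ITGB4 and LAMA1 each rest on 1.

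The chains were paired into known complexes, each chain read at its brightest probe set. Of 23 integrin dimers listed, 22 had both chains measured, and 15 had both chains above the filter. In 3 of these 15 (α2β1, α3β1 and α11β1) the α chain was at least 2-fold higher, and in none were both chains past 2-fold in the same direction. A chain was at least 2-fold lower in 4, the α chain in α7β1 and α9β1 and the β chain in αVβ3 and α6β4. In α6β4 both chains were lower, ITGA6 by 0.61 and ITGB4 by 1.28 on the log2 scale. The second ITGA6 probe set was at -1.38, so whether both chains passed 2-fold depends on the probe set read. The other 8 had no chain past 2-fold. Most of these dimers share the β1 chain, so they are not independent of each other. All of them but α6β4 hold ITGB1 (-0.04) or ITGAV (0.07), so in these both chains could not pass 2-fold together. Every α chain above the filter except ITGAE has a listed partner above the filter.

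Both chains were above the array median for 14 dimers in miR-127-3p cells and for 17 in control cells, and all 14 were among the 17. The other 3 were α7β1, through ITGA7, and α4β7 and αEβ7, through ITGB7, which had no probe set above the filter. Of 14 laminin trimers listed, 11 had all chains measured. All 3 chains were above the median for 6 trimers in miR-127-3p cells and for 4 in control cells. Laminin-111 and laminin-121 made the difference, through LAMA1 alone, while laminin-411, laminin-421, laminin-511 and laminin-521 were above the median on both arrays. With every chain required above the 75th percentile instead, 4 trimers counted on each array. These counts describe transcripts of chains that can pair, and assembled receptors or trimers were not measured.

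**Figure D3:**
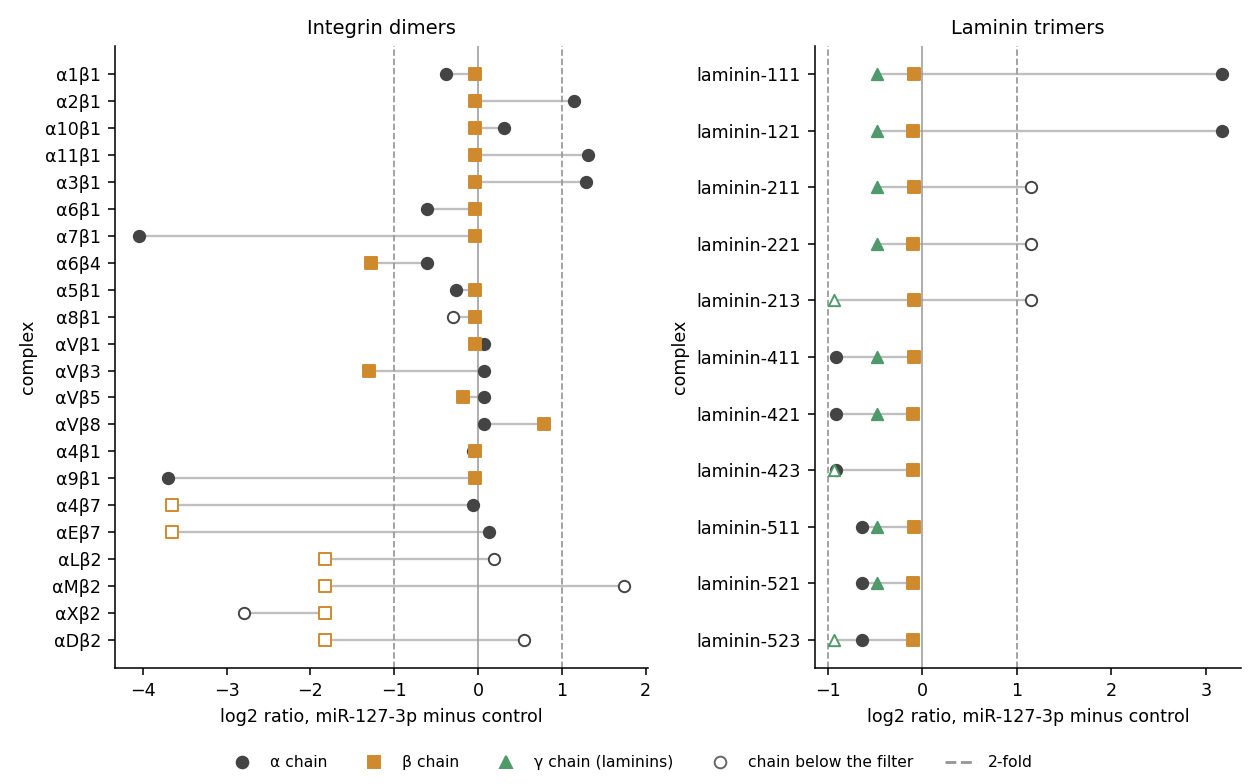
Log2 ratio of each chain in the 22 integrin dimers (left) and 11 laminin trimers (right) with all chains measured; circles are α, squares β and triangles γ chains, open symbols are chains below the filter and dashed lines mark 2-fold. In the β1 dimers the square stays at -0.04 and the circles lie on both sides of it, up to 1.31 for α11, with α7, dim on the miR-127-3p array, plotted at its measured -4.04 (as a limit, at least 9.97-fold lower), and in the trimers the circles alone pass 2-fold.

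Partners of laminin in the basement membrane moved in both directions, with 3 of 15 higher and 1 lower by at least 2-fold, beside 5.06% and 8.67% of all genes above the filter. The share lower, 1 of 15, is thus near that of all genes. COL4A6, a collagen IV chain, gave 3079 under miR-127-3p against 224 in control cells, or 13.6-fold higher, and NTN4, a netrin that binds laminin, gave 2763 and 1153, a log2 ratio of 1.25. COL4A5, which forms a network with COL4A6 and was chosen after its values were seen, gave 2941 and 1300, a ratio of 1.17. FRAS1, a protein that anchors epithelia to the basement membrane, gave 10.6 under miR-127-3p against 790 in control cells, at least 9.46-fold lower, on the array where epithelial markers were lower too. NID1, nidogen, which links the laminin γ1 chain to collagen IV, was at -0.95 with 3 probe sets between -1.05 and -0.95. The median log2 ratio of the 15 genes was -0.34.

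Other receptors for laminin and the partners of ITGB4 were mostly within 2-fold at their brightest probe sets, as were most genes above the filter. SDC1, a heparan sulfate receptor, gave 1273 under miR-127-3p against 543 in control cells, a log2 ratio of 1.22. It was the only 1 of 5 laminin receptors outside the integrins past 2-fold, beside 5.06% of all genes higher and 8.67% lower. MCAM was at 0.31, SDC2 at -0.06, BCAM, a receptor for laminin α5, at -0.10 and SDC4 at -0.48. The hemidesmosome genes PLEC, DST and CD151 were at 0.23, 0.14 and 0.07. DST, dystonin, had 5 probe sets from -1.19 to 0.45. Of 5 genes of laminin cleavage and dystroglycan glycosylation none passed 2-fold at its brightest probe set and all had ratios above 0 there. With 5 genes, none past 2-fold is near the shares of all genes. MMP14, a membrane metalloproteinase, was at 0.64, with 4 probe sets from 0.64 to 1.84, and POMT2 was at 0.57.

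Ligands and intracellular partners of integrins gave counts on both sides, to be read beside the same 5.06% of all genes higher and 8.67% lower. Of 19 ligands other than laminins, 4 were higher and 1 was lower. POSTN, periostin, gave 210.8 and 40.2, at least 2.21-fold higher, and THBS1, thrombospondin, had 5 probe sets from 0.76 to 1.998. COL1A1 was at -1.95 but reached -0.04 at another probe set, and EDIL3, an RGD protein, was at -0.995. FN1, fibronectin, chosen here as the ligand of α5β1, was at -0.15, and its 7 probe sets ran from -0.69 to 0.38 across 0. Of 11 membrane partners 2 were lower and none higher. CD9, a tetraspanin, gave 2649 under miR-127-3p against 15439 in control cells, or 5.87-fold lower, and CD82 was at -1.51 and, at its other probe set, -0.81, with TSPAN4 at 0.71 and CAV1 at 0.70. Of 23 focal adhesion adaptors and kinases 1 was higher and 4 were lower. FYN, a SRC family kinase, gave 1007 and 4347, or 4.35-fold lower, with all 5 probe sets between -2.64 and -1.86, and BCAR1 was at -1.40 but at -0.31 at its other probe set. PXN, paxillin, was at 1.04 and TGFB1I1, its relative, at 0.75. Of 9 genes of integrin activity and traffic 1 was higher, SNX17, a sorting nexin that recycles β1, at 1.01. RAP1A was the 1 lower, at -1.02 but at -0.57 at its other probe set. RAP1B was at 0.94 and SHARPIN, an integrin inhibitor, at -0.54.

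**Figure D4:**
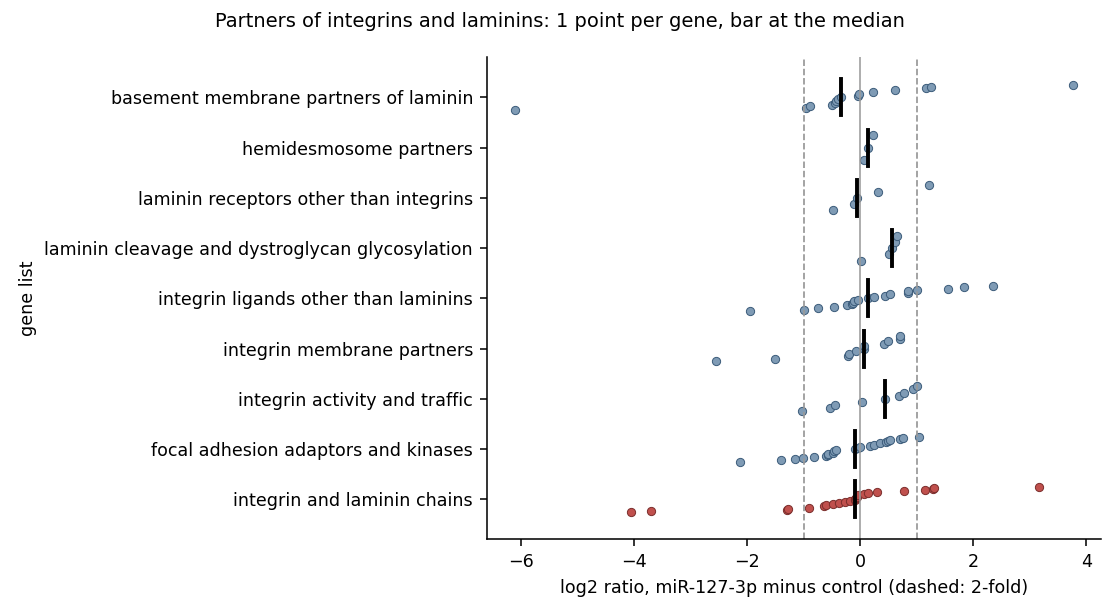
Log2 ratio, miR-127-3p minus control, of each gene above the filter in 8 lists of partner genes and in the integrin and laminin chains (red); bars mark medians and dashed lines 2-fold. Medians of the lists lie between -0.34 and 0.57, and among the partner genes FRAS1 and COL4A6 lie furthest from 0; ratios are plotted as measured, also where 1 array was dim.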

How the data were processed

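Biotin-labelled cRNA was prepared from total RNA with an Affymetrix 3′ kit, per the labels' protocols, so signals come mainly from transcript 3′ ends. The authors deposited linear signal intensities, 1 value a probe set; which software and background correction made them is not given in the sources used here. Trimmed means (2% at each end) were 499.9 on both arrays. Annotation gave 1 symbol for 41091 of 54613 non-control probe sets, several for 1801 and none for 11721. Of the single symbols 99.9% matched a RefSeq gene identifier (GRCh38.p14).

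Ratios, the filter and the 2-fold rule are as given in the report, with a pseudocount of 1. A gene was read at its brightest probe set above the filter, or otherwise at its brightest. Where the dimmer array lay below its median, that median replaced it and the fold is a lower limit. All members were named, and up to 2 genes a direction of each partner list whose probe sets agreed in sign, plus all genes of the hemidesmosome list and of the other laminin receptors. Marker genes, FN1 and COL4A5 are named outside that rule. Members, lists and the pairing table were chosen with earlier results of these data known. The procedure was tested on simulated arrays. Python 3.11.15, numpy 2.4.6, pandas 2.3.3, statsmodels 0.14.6 and matplotlib 3.10.9 were used.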

Additional observations from a re-analysis of the deposited data

How the results depend on the processing

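The counts of 4 higher and 4 lower members held without centring, after quantile normalization, after removal of a loess trend (span 0.3), and with 75th percentile scaling, pseudocounts of 16 and 32, the mean of all probe sets and a floor at the array median. With the mean of all probe sets ITGB8 took the place of ITGA2. At 1.5-fold 5 of 24 were higher and 7 lower, beside 14.5% and 18.1% of all genes, and at 3-fold 1 was higher (LAMA1) and 2 were lower (ITGA7 and ITGA9), beside 1.57% and 3.94%. Without a filter 6 of 34 were higher and 7 lower, beside 12.8% and 17.2% of all genes, and with one at the 75th percentile 2 of 18 were higher and 2 lower, beside 3.31% and 4.95%. Of 275 values of single members under 12 alternatives, 6 moved further than the spread between probe sets, 0.41. ITGAV alone changed sign, to -0.02 after quantile normalization. ITGA7 ranged from -4.05 to -3.32, LAMA1 from 2.02 to 3.28, ITGB8 from 0.74 to 1.33 and ITGB5 from -0.88 to -0.15. With chains required above the 75th percentile, 9 dimers counted in miR-127-3p cells against 12 in control cells, and 4 trimers in each, so the trimer difference through LAMA1 was gone. Without probe sets whose suffix marks possible cross-matches, dimers fell to 3 and 5 and trimers to 1 and 1 on the miR-127-3p and control arrays, and 3 members each were higher and lower; the bright ITGB1 probe sets all carry such a suffix, as do the probe sets that ITGA3 and ITGB4 are read at. With 1 array a group, the precision between cultures is unknown.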

Other observations

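Genes named after integrins and laminins that the member rule leaves out were listed after their values were seen, and not all are given here. ITGB8-AS1, a non-coding RNA at the ITGB8 locus, gave 561 under miR-127-3p against 237 in control cells, a log2 ratio of 1.23, on the same side as the 4 ITGB8 probe sets above the filter. ITGA2B, the platelet α chain that pairs with β3, gave 64.4 and 135 at its brightest probe set, at least 1.63-fold lower, and its other 3 probe sets were dim on both arrays. ITGB1BP1, an inhibitor of β1 activation, gave 3840 and 2227 at its brightest probe set, a ratio of 0.77, and -0.35 at its second. ITGB1BP2, melusin, a muscle partner of β1, gave 79.8 under miR-127-3p against 156 in control cells, at least 1.88-fold lower. LAMA4-AS1 was below the filter, with 84.5 under miR-127-3p against a dim 37.6 in control cells, at least 1.12-fold higher. LAMA4 itself had a ratio of -0.91. ITGBL1, an integrin-like secreted protein, had 5 probe sets, all dim on both arrays. ITGB6, the β6 chain that pairs with αV, shares its 4 probe sets with the symbol LINC02478. The brightest passed the filter with 24.5 under miR-127-3p against 288 in control cells, at least 3.46-fold lower. The others were dim on both arrays. Which of the 2 genes gave these signals was not tested.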
